A study of Mus musculus with 18 samples.

Results

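The replication-dependent histone genes form dense clusters in the mouse genome, and they supply the H1, H2A, H2B, H3 and H4 proteins that package newly copied DNA. Their mRNAs are made mainly in S phase. Unlike other mRNAs they mostly end in a conserved stem-loop in place of a poly(A) tail, and the stem-loop binding protein Slbp acts there in processing, translation and decay. The members were all genes of the protein-coding count table whose names begin with Hist1h, Hist2h, Hist3h or Hist4h, which gave 63 of 21734 genes: 52 of the Hist1 cluster, 9 of Hist2, 1 of Hist3 and 1 of Hist4. By protein they were 5 H1, 16 H2A, 17 H2B, 12 H3 and 13 H4 genes.

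The libraries were RNA-seq of bone marrow-derived macrophages grown in 10 ng/mL M-CSF, a macrophage growth factor, for 8 to 9 days from mice of mixed 129 and B6 background, aged 6 to 7 months by the labels. For the macrophage lysates of its companion proteome the study's methods give a younger age, and the labels were followed here. The genotypes were wild-type (WT), miR-146a-null (KO) and homozygous 3F, in which the seed of the microRNA miR-146a is kept and the 3′ part of its duplex is swapped between the strands. Cells of each genotype were left resting or given LPS, a bacterial cell wall component, at 1 ng/mL for 16 h, with 3 libraries in each of the 6 groups and 18 in all. Both alleles were passed through the germline, so every cell of a mouse carries them and not macrophages alone. The RNA was ribosome-depleted rather than poly(A)-selected, so mRNAs without a tail could be measured. miR-146a itself is not a protein-coding gene, and the targeted locus was not analysed here.

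Total counts ran from 4071084 to 19818043 per library. The shallowest was resting 3F replicate 3, where histone genes held 0.627% of counts, against 0.0502% to 0.303% in the other 17 libraries. This library had the highest level of the 18 for 46 of the 57 members that were tested. Its level, relative to the mean of resting 3F replicates 1 and 2, gave a median log2 ratio of 1.59 over 55 members with a mean above 1 CPM (counts scaled to 1e+06 per library). The median ratio was 0.97 for 111 genes with a summed exon length of up to 600 bases and 0.82 for those above that and up to 1000 bases, whereas 10147 genes of more than 1000 bases had a median of -0.05. The part of exon length in the histone levels of this library was not tested. For comparisons that use it, the number of members called and their median are also given without it. Counts by class and counts of the other gene lists in 3F include it, as do some single-gene values, such as that of Cdk2. Resting KO replicate 3 also stood apart, with a median log2 ratio of -0.58 over 53 members against the mean of its 2 partners. Macrophage markers such as Adgre1 and Csf1r were present in all libraries, but the summed level of the list of 7 genes differed between WT and KO. It was 31119 to 47144 CPM in resting WT and 59490 to 61539 in resting KO, and 44066 to 58285 in WT and 69391 to 86458 in KO under LPS, without overlap in either state. In 3F it was 41887 to 61510 CPM at rest and 48601 to 58972 under LPS. Single markers did not all follow the sum. Of 8 rows tested in KO against WT at rest, 2 were higher and 1 lower, with log2 fold changes from -1.20 to 1.79. Under LPS 0 were higher and 1 was lower. The neutrophil list of 8 genes summed to 13.9 to 23.0 CPM in resting WT and 31.1 to 38.9 in WT under LPS, without overlap, to 15.1 to 53.6 and 38.4 to 66.0 CPM in KO, and to 12.9 to 67.9 and 27.6 to 32.1 CPM in 3F. The T cell list of 6 genes summed to 0.898 to 11.4 CPM. The B cell, erythroid, mast cell and dendritic cell lists reached at most 1.17, 0.702, 0.936 and 3.98 CPM. Their part in the results was not tested.

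**Figure D1:**
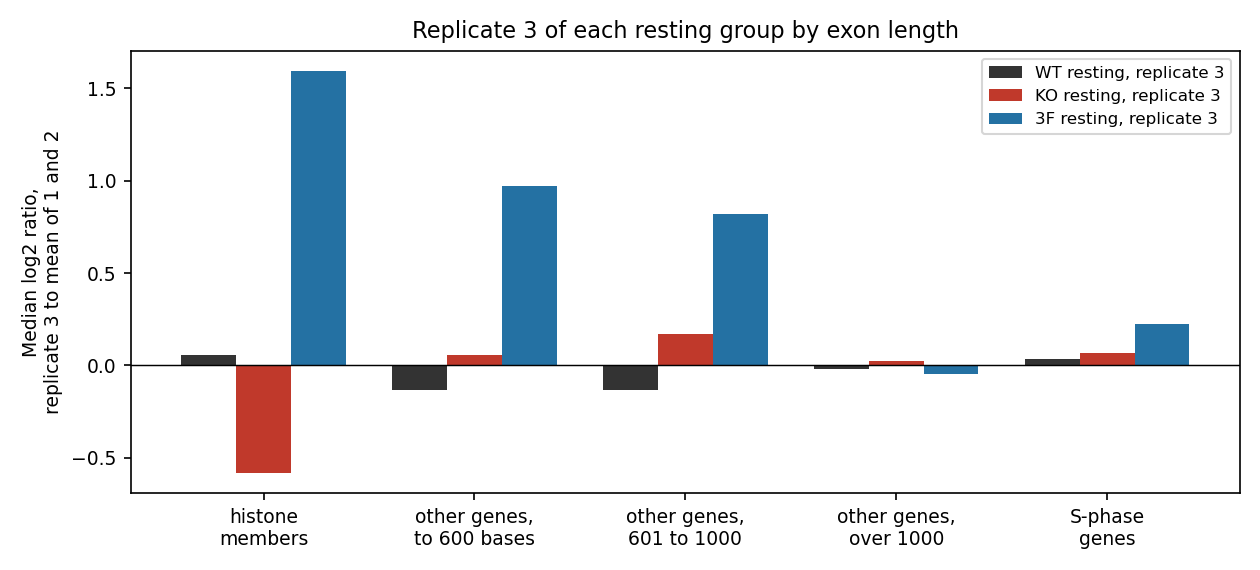
Median log2 ratio of replicate 3 to the mean of replicates 1 and 2 (vertical axis) in the resting WT, KO and 3F groups, for histone members, other genes split by exon length in bases, and 20 S-phase genes. Bars of resting 3F stand at 1.59 for histone members and 0.97 for other genes of up to 600 bases, and at -0.05 for other genes of more than 1000 bases.

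The stem-loop is the feature of these mRNAs that sets their 3′ end, so it was searched for in the annotated transcripts as a 6-base stem beginning with GG, a 4-base loop beginning with TT, and the complement of the stem. It was found in 41 of the 63 members and took 6 forms, the commonest in 23 members. For the other 22 members these letters are not in the annotated model, which says nothing of the mRNA itself. The forms below are shown with 5 bases on each side, with the 16 bases of the hairpin in capitals, and come from GENCODE M21 transcripts on mm10.
Hist1h2bg: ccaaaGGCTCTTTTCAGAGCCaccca
Hist1h4f: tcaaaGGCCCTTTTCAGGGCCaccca
Hist1h2bb: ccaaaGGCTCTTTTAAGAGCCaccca
Hist1h4i: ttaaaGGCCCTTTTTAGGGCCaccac
Hist1h4b: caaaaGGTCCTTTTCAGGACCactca
Hist2h2ac: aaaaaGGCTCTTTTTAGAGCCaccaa
The first form was held by 23 members of the H1, H2A, H2B and H3 classes, and the second by 7 members, all of them H4 genes. Among these 41 no form was shared between H4 and the other classes.

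Promoters were read for 57 members from RefSeq (GRCm38.p6, 250 bases before to 50 after the start), because most members moved in the same direction in the comparisons below. The start lay within 100 bases of the annotated GENCODE start for 56 of the 57. Both strands were searched for the TATA motif TATAAA, for the motif CCAAT, for the GC motif GGGCGG and for the octamer ATTTGCAT, of which none contains another. The octamer is known to bind Oct1 in H2B promoters. The TATA motif was present in 33 of 57 member promoters, against 13.6% of all 32851. CCAAT was present in all 15 H2A, 15 H2B, 10 H3 and 5 H1 promoters, but in 3 of 12 H4 promoters, against 37.4% of all promoters. GGGCGG was present in 22 of 57 member promoters (38.6%), close to the 35.7% of all promoters. By class it was in 3 of 5 H1, 7 of 15 H2A, 1 of 15 H2B, 2 of 10 H3 and 9 of 12 H4 promoters. The octamer was present in 5 of 15 H2A and 5 of 15 H2B promoters and in no H1, H3 or H4 promoter, against 1.74% of all. Windows of the divergent H2A and H2B pairs given below overlap, so 1 match of any motif can count in both classes. The H2A and H2B counts are therefore not independent. One promoter of an H2A, an H2B, an H3 and an H4 gene is printed on its gene's strand, with matches of TATA, CCAAT and octamer motifs on either strand in capitals. Hist2h2ac lies at chr3:96220831-96221130 (minus strand), Hist1h2bb at chr13:23746484-23746783 (plus), Hist1h3e at chr13:23562336-23562635 (minus) and Hist1h4d at chr13:23581318-23581617 (plus).
Hist2h2ac: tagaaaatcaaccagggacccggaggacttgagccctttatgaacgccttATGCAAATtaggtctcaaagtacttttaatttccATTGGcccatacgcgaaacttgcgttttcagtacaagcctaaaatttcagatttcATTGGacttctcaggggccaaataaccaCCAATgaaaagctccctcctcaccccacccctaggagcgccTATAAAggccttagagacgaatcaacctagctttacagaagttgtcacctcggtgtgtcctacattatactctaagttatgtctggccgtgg
Hist1h2bb: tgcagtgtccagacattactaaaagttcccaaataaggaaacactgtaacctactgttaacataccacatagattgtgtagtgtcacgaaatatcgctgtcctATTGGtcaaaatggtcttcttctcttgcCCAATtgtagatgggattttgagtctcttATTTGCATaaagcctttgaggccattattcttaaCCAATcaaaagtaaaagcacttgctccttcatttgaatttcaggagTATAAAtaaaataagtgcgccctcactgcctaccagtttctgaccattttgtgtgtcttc
Hist1h3e: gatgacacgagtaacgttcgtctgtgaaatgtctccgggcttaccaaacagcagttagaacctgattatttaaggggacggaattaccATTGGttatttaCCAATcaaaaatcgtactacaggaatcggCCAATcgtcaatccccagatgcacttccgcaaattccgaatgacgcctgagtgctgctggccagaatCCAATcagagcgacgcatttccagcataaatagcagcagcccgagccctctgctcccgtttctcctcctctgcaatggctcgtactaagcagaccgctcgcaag
Hist1h4d: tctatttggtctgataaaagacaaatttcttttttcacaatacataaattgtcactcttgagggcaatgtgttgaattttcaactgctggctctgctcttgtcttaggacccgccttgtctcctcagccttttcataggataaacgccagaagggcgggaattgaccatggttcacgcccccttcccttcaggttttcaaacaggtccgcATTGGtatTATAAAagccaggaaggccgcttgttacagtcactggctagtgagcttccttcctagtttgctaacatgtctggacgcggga
Starts of an H2A and an H2B gene faced each other less than 1000 bases apart in 11 pairs, 10 of them on chromosome 13, with 176 to 306 bases between starts. One pair was Hist2h2ac and Hist2h2be on chromosome 3, whose starts are 239 bases apart, so that the Hist2h2ac window above reaches the Hist2h2be start.

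Because only uniquely placed reads were counted, members that share sequence could lose reads. Over all annotated transcripts, the median share of a member's 50-base stretches found in no other gene was 100% for H1, 60.5% for H4, 55.9% for H2B, 38.0% for H3 and 17.7% for H2A. It was 0% for Hist2h2aa1, Hist2h2aa2, Hist2h3b and Hist2h3c1, and levels of these near-identical copies are uncertain. The 6 remaining members were too low to test: Hist1h1t, Hist1h2aa, Hist1h2ap, Hist2h2aa2, Hist1h2ba and Hist1h2br, with 1 to 58 counts over all libraries. Hist1h1t, Hist1h2aa and Hist1h2ba are known as testis histone genes.

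Levels per length, as mean CPM per kilobase of exon over the 18 libraries, were highest for Hist1h4f at 156, Hist1h1c at 141, Hist2h2ac at 138, Hist1h4h at 123 and Hist1h1b at 119. Without resting 3F replicate 3 the order changed, with Hist1h1c at 137, Hist2h2ac at 113 and Hist1h4f at 103. By share of the summed histone CPM, which is not per length, the H1 genes held a median of 29.7% over libraries, the H4 genes 27.2%, the H2B genes 19.5%, the H2A genes 11.1% and the H3 genes 10.1%. These shares were not corrected for reads lost to shared sequence, which differs by class as given above. The part of such loss in this order was not tested. Hist1h1c alone gave 13.6% of the mean summed level. Fewer dividing cells and less histone mRNA in each dividing cell cannot be told apart in these bulk libraries.

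The summed level of the 63 members, scaled by TMM (a correction for library composition), was 2198, 2632 and 2554 CPM in resting WT and 834, 1210 and 1175 CPM in WT given LPS. In resting KO it was 1074, 1162 and 1036 CPM, and in KO given LPS 669, 618 and 887 CPM. In resting 3F it was 1774, 2018 and 5978 CPM, and in 3F given LPS 1093, 815 and 1256 CPM. Resting WT and resting 3F libraries lay above all others, and resting KO overlapped WT given LPS. Resting 3F had a mean of 3256 ± 2360 CPM (SD, n = 3), and of 1896 CPM without replicate 3.

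**Figure D2:**
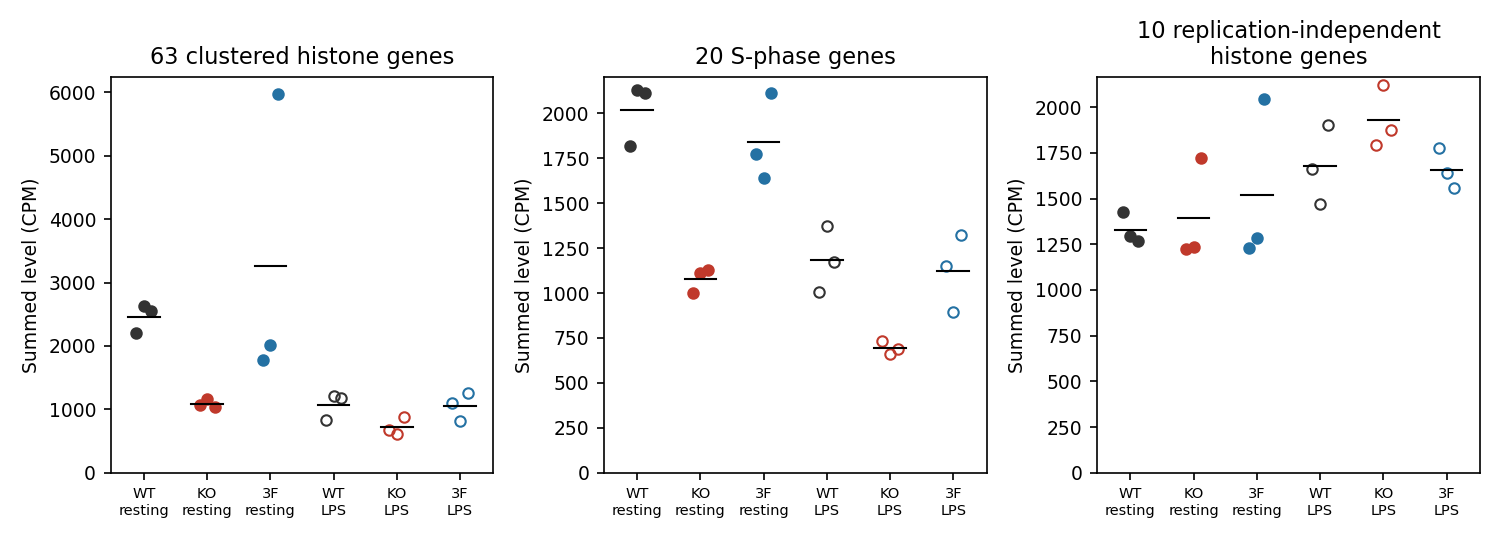
Summed level in TMM-scaled CPM (vertical axis) of the 63 clustered histone genes, 20 S-phase genes and 10 replication-independent histone genes, with a point for each library, filled for resting and open for LPS, and a line at the mean of the 3 libraries. The histone sum of resting 3F replicate 3 is 5978 CPM, and the other libraries lie between 618 and 2632 CPM.

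In WT macrophages the histone genes fell after LPS. Of the 57 members tested, 36 were lower, 0 were higher and 21 did not pass the test, which was edgeR's quasi-likelihood test with Benjamini-Hochberg adjustment over all 11357 tested genes and a threshold of 0.05 on the adjusted p. Of all tested genes, 12.3% were lower and 16.3% higher. The median log2 fold change was -1.24 over the members and 0.02 over all tested genes. By class, 4 of 4 H1, 10 of 13 H2A, 8 of 15 H2B, 10 of 12 H3 and 4 of 13 H4 genes were lower.

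Linker histones bind the DNA between nucleosomes, and 2 of their genes had the largest fitted falls among the called members. Hist1h1a had 114, 91.7 and 103 CPM in resting WT and 16.7, 25.9 and 25.2 CPM after LPS, a log2 fold change of -2.19 ± 0.51 (SE, adjusted p = 0.00432). The 2 groups did not overlap. Hist1h1b fell by 2.02 ± 0.48 (adjusted p = 0.00496), and Hist1h2ao, with 3 to 18 counts in the libraries of the 2 groups, fell by 1.86 ± 0.49 (adjusted p = 0.0102). Hist1h1c, the member with the highest count, had 243, 367 and 380 CPM resting and 150, 194 and 197 CPM after LPS, and fell by 0.87 ± 0.18 (adjusted p = 0.00221).

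Among the core histones, Hist1h2bb went from 84.5, 74.7 and 88.6 CPM to 25.4, 37.7 and 28.8 CPM, a fall of 1.43 ± 0.48 (adjusted p = 0.0339). Its groups did not overlap. Among the highest H2A genes, Hist1h2ak fell by 1.49 ± 0.27 (adjusted p = 0.000751), Hist1h2ab by 1.39 ± 0.28 (adjusted p = 0.00171) and Hist1h2ai by 1.47 ± 0.43 (adjusted p = 0.0174), whereas Hist2h2ac, at -0.64 ± 0.38, did not pass (adjusted p = 0.233). Among H3 genes, Hist1h3b fell by 1.79 ± 0.47 (adjusted p = 0.00979) and Hist1h3c by 1.52 ± 0.47 (adjusted p = 0.0232). Hist1h3e fell by 1.12 ± 0.35 (adjusted p = 0.0254) and Hist1h4d by 0.78 ± 0.24 (adjusted p = 0.0215). Hist1h4f did not pass the test, at -1.44 ± 0.54 (adjusted p = 0.0574), although its resting levels of 85.1, 82.8 and 79.2 CPM lay above its LPS levels of 23.3, 38.5 and 29.1 CPM. Nor did Hist1h4h, Hist1h4c or Hist1h2be pass, at -1.03 ± 0.41 (adjusted p = 0.0709), -0.96 ± 0.42 (adjusted p = 0.0997) and -0.73 ± 0.38 (adjusted p = 0.175), while Hist1h2bg fell by 0.88 ± 0.25 (adjusted p = 0.0135) and Hist1h1d by 1.66 ± 0.33 (adjusted p = 0.00162). Leaving out WT LPS replicate 1 gave 19 lower members, and leaving out replicate 2 of resting WT gave 23.

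In KO macrophages LPS took the linker histone genes and a few core histone genes lower. Of the 57, 11 were lower and 0 higher, against 12.6% lower and 14.3% higher of all tested genes, and the members' median log2 fold change was -0.60. All 4 tested H1 genes were among the 11, with 4 of 13 H2A, 1 of 15 H2B, 2 of 12 H3 and 0 of 13 H4 genes. Of the 36 members lower in WT, 10 were also lower in KO (27.8% of the WT list and 90.9% of the KO list). Hist1h2ah fell by 1.71 ± 0.50 (adjusted p = 0.0181), Hist1h1a by 1.51 ± 0.52 (adjusted p = 0.0395) and Hist1h1b by 1.37 ± 0.48 (adjusted p = 0.0451). Hist1h2ah had only 3 to 28 counts in the libraries of the 2 groups.

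Hist1h1c levels of 220, 217 and 254 CPM in resting KO and 118, 104 and 154 CPM after LPS gave a fall of 0.87 ± 0.18 (adjusted p = 0.00215). Hist1h4d had 68.8, 77.0 and 71.4 CPM resting and 67.9, 69.9 and 88.9 CPM after LPS, a log2 fold change of 0.06 ± 0.24 (adjusted p = 0.881), and its groups overlapped. The count fell to 5 without KO LPS replicate 1 and to 4 without KO LPS replicate 2, resting KO replicate 1 or resting KO replicate 2. It was 24 without both resting KO replicate 3 and resting 3F replicate 3.

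In 3F macrophages, 44 of the 57 members fell after LPS and 0 rose, against 14% lower and 17.2% higher of all tested genes. The members' median log2 fold change was -1.71. All 4 H1 genes, 12 of 13 H2A, 9 of 15 H2B, 9 of 12 H3 and 10 of 13 H4 genes were lower. Hist1h3g fell by 3.10 ± 0.70 (adjusted p = 0.00316), Hist1h1a by 2.99 ± 0.53 (adjusted p = 0.000529) and Hist1h4a by 2.82 ± 0.53 (adjusted p = 0.000903). The sizes rest in part on resting 3F replicate 3: Hist1h3g had 10.6, 12.8 and 85.9 CPM in resting 3F and 3.22, 2.46 and 7.05 CPM after LPS. Without that library 36 members were lower and the median was -1.004, with Hist1h3g at -1.59 ± 0.43 (adjusted p = 0.0131), Hist1h1a at -1.91 ± 0.34 (adjusted p = 0.000809) and Hist1h4a at -1.68 ± 0.30 (adjusted p = 0.000920). The log2 ratio of the summed CPM went from -1.63 to -0.85.

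The difference between the genotypes in their LPS response was tested directly as an interaction. For KO against WT no member passed the test (0% of all tested genes higher and 0.00881% lower), with 2 members at an unadjusted p under 0.05. The members' median was 0.68 and 51 of 57 were above 0, and across all tested genes 560 had an unadjusted p under 0.05. Hist1h4d, at 0.84 ± 0.34, had an adjusted p of 0.862. For 3F against WT no member passed (0% and 0% of all genes), 0 members and 203 of all genes had an unadjusted p under 0.05, and the median was -0.36. Without resting 3F replicate 3 that median was 0.29, again with 0 members called. The DESeq2 Wald test also called 0 members in both interactions and in both comparisons of 3F with WT below.

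**Figure D3:**
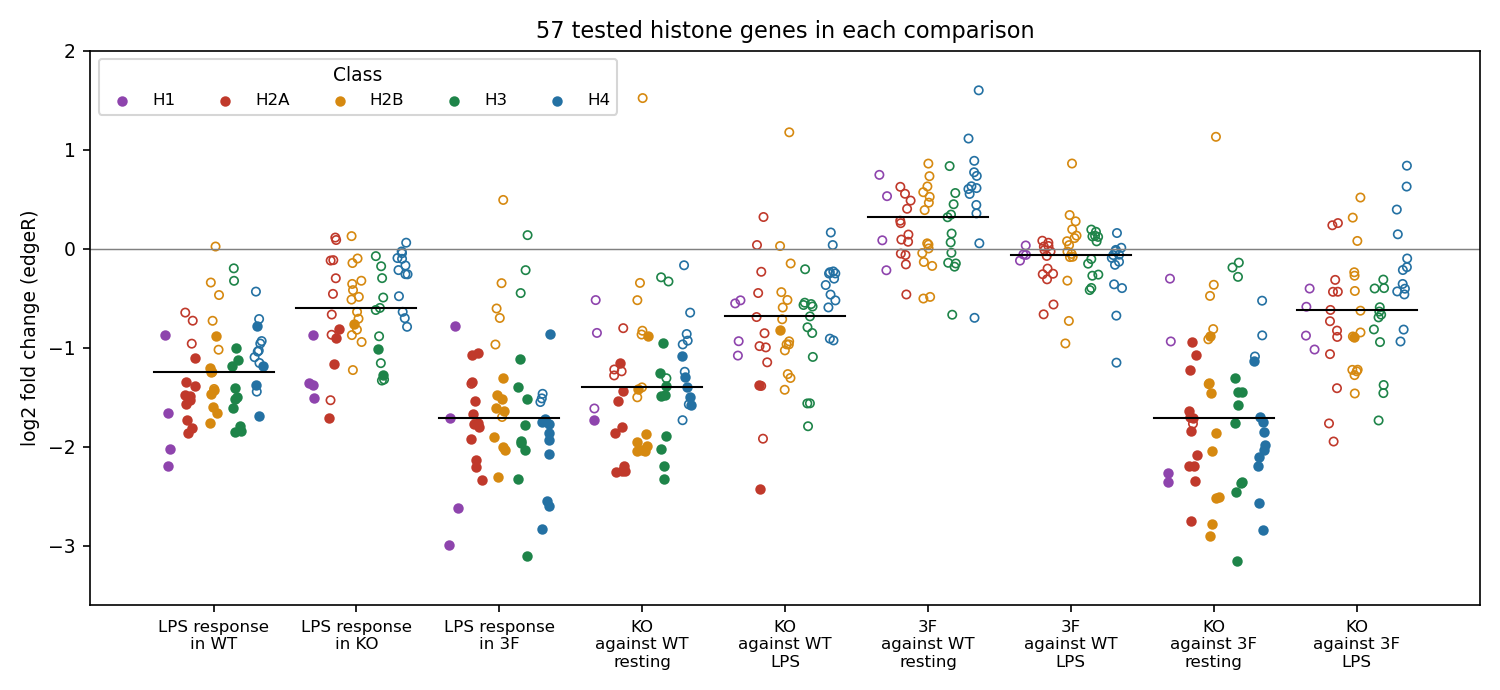
log2 fold change (vertical axis, from edgeR) of each of the 57 tested members in 9 comparisons (horizontal axis), colored by histone class, filled where the adjusted p was under 0.05, with a line at the median. The medians are -1.24, -0.60 and -1.71 for the LPS responses of WT, KO and 3F, and every filled point lies below 0.

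In resting macrophages without miR-146a, most tested histone genes were lower than in WT cells. In KO against WT, 32 of the 57 members were lower and 0 higher, with 4.27% of all tested genes lower and 5.12% higher, and a members' median log2 fold change of -1.40. By class, 1 of 4 H1, 9 of 13 H2A, 8 of 15 H2B, 9 of 12 H3 and 5 of 13 H4 genes were lower. Hist1h3g had a log2 fold change of -2.32 ± 0.67 (adjusted p = 0.0408), Hist1h2ag had -2.25 ± 0.44 (adjusted p = 0.00534) and Hist1h2af had -2.25 ± 0.46 (adjusted p = 0.00753).

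Hist1h2ag levels were 10.6, 11.6 and 9.48 CPM in resting WT and 2.41, 2.98 and 1.01 CPM in resting KO. Hist1h2bb levels were 84.5, 74.7 and 88.6 CPM in WT and 21.3, 23.6 and 14.9 CPM in KO, a log2 fold change of -2.04 ± 0.49 (adjusted p = 0.0158). Neither gene's groups overlapped. Hist1h3c and Hist1h4d were also lower, at -2.20 ± 0.49 (adjusted p = 0.0103) and -1.08 ± 0.24 (adjusted p = 0.0105). So were Hist1h2ak (-1.53 ± 0.27, adjusted p = 0.00346), Hist1h3b (-2.02 ± 0.48, adjusted p = 0.0156), Hist1h3f (-1.89 ± 0.48, adjusted p = 0.0222) and Hist1h4h (-1.40 ± 0.41, adjusted p = 0.0441). Hist1h1c, at -0.52 ± 0.18, did not pass (adjusted p = 0.0905). Nor did Hist1h1a, Hist1h1d, Hist2h2ac, Hist1h2bc, Hist1h2be, Hist1h4c or Hist1h4f, each also among the 4 members of its class with the highest mean CPM. The count was 13 without resting WT replicate 2, 19 without resting WT replicate 3, 21 without resting KO replicate 1 and 16 without resting KO replicate 3, and 44 without resting KO and 3F replicates 3 together.

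Against resting 3F, resting KO cells had 42 lower and 0 higher members (6.1% of all tested genes lower and 6.79% higher), with a median of -1.71. Hist1h3g was at -3.16 ± 0.69 (adjusted p = 0.0102), Hist1h2bk at -2.90 ± 0.62 (adjusted p = 0.00913) and Hist1h4f at -2.84 ± 0.57 (adjusted p = 0.00753). Hist1h4f had 24.5, 28.9 and 20.9 CPM in KO and 61.6, 70.3 and 411 CPM in 3F, so the groups did not overlap but 1 library lay far above. Without resting 3F replicate 3 the median was -0.99, with Hist1h3g at -1.59 ± 0.43 (adjusted p = 0.0402), Hist1h2bk at -1.49 ± 0.36 (adjusted p = 0.0265) and Hist1h4f at -1.40 ± 0.30 (adjusted p = 0.0180). The count was 27 without that library, 20 without it and resting KO replicate 3, and 0 when only these 2 groups were fitted.

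Resting 3F did not differ detectably from resting WT: no member passed (0% of all genes lower and 0% higher), 2 members and 557 of all genes had an unadjusted p under 0.05, and the median log2 fold change was 0.32 with SEs from 0.18 to 0.82. Without resting 3F replicate 3 the median was -0.39, and the log2 ratio of summed CPM went from 0.40 to -0.38, so the direction rests on that library. These comparisons share the WT, KO or 3F libraries, so they are not independent of one another.

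In KO against WT under LPS, 3 members were lower and 0 higher (2.9% of all genes lower and 1.89% higher), with a median of -0.68. They were Hist1h2ah (-2.42 ± 0.47, adjusted p = 0.00782), Hist1h2ab (-1.37 ± 0.31, adjusted p = 0.0180) and Hist2h2be (-0.81 ± 0.19, adjusted p = 0.0204). Hist1h2ah had few counts, with 10, 3 and 8 in KO and 34, 44 and 37 in WT under LPS. Only 7.87% of its 50-base stretches were found in no other gene. Against 3F under LPS, 1 member was lower in KO and 0 higher (2.37% of all genes lower and 1.51% higher). It was Hist2h2be, at -0.89 ± 0.19 (adjusted p = 0.0145). Between 3F and WT under LPS no member passed (0% of all genes lower and 0.00881% higher), 0 members and 106 of all genes had an unadjusted p under 0.05, and the median was -0.06. The KO against WT count was 1 without WT LPS replicate 2 or KO LPS replicate 1 and 0 without KO LPS replicate 2, but 7 with no low-count filter, 9 by DESeq2, 13 by limma-voom and 11 with only these 2 groups fitted. The KO against 3F count was 0 without KO LPS replicate 1, KO LPS replicate 2 or 3F LPS replicate 3, and 3 without KO LPS replicate 3, and the same alternatives gave 6, 9, 14 and 19, of which 18 were lower and 1 higher in the last.

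Hist2h2be, an H2B gene known from olfactory neurons, which do not divide, was the member called in both comparisons of KO with another genotype under LPS. It had 15.2, 21.2 and 16.0 CPM in resting WT, 12.4, 14.1 and 9.88 in resting KO and 16.4, 20.8 and 12.6 in resting 3F. Under LPS it had 13.3, 12.8 and 11.8 CPM in WT, 6.89, 6.52 and 8.13 in KO and 11.9, 13.6 and 14.5 in 3F. Its mean was lowest in KO given LPS, as was that of 46 of the 57 tested members, and resting 3F replicate 3 was the lowest of its group for this gene. Its divergent partner Hist2h2ac had 96.5, 83.3 and 97.7 CPM in resting WT and 41.5, 43.2 and 34.4 in resting KO, and 37.7, 32.8 and 39.6 in KO given LPS. Hist2h2ac was lower after LPS in 3F (-1.34 ± 0.39, adjusted p = 0.0162) and in KO against 3F, resting (-1.84 ± 0.40, adjusted p = 0.00955), and Hist2h2be in neither of these. Without resting 3F replicate 3 the first was -0.44 ± 0.21 and did not pass (adjusted p = 0.134), and the second was -0.89 ± 0.21 (adjusted p = 0.0247). Whether the 2 genes differ was not tested.

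In all, 10 tested members passed in no comparison: Hist2h2ab, Hist1h2bc, Hist1h2bp, Hist1h2bq, Hist3h2ba, Hist2h3c1, Hist2h3c2, Hist1h4i, Hist1h4m and Hist1h4n. Hist1h2bc was the only one of them above 20 CPM on average. It had 65.2, 58.7 and 59.2 CPM in resting WT and 40.6, 50.2 and 53.9 CPM after LPS, a log2 fold change of -0.34 ± 0.37 (adjusted p = 0.541). In resting KO it had 27.7, 34.3 and 83.4 CPM, the last in replicate 3.

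**Figure D4:**
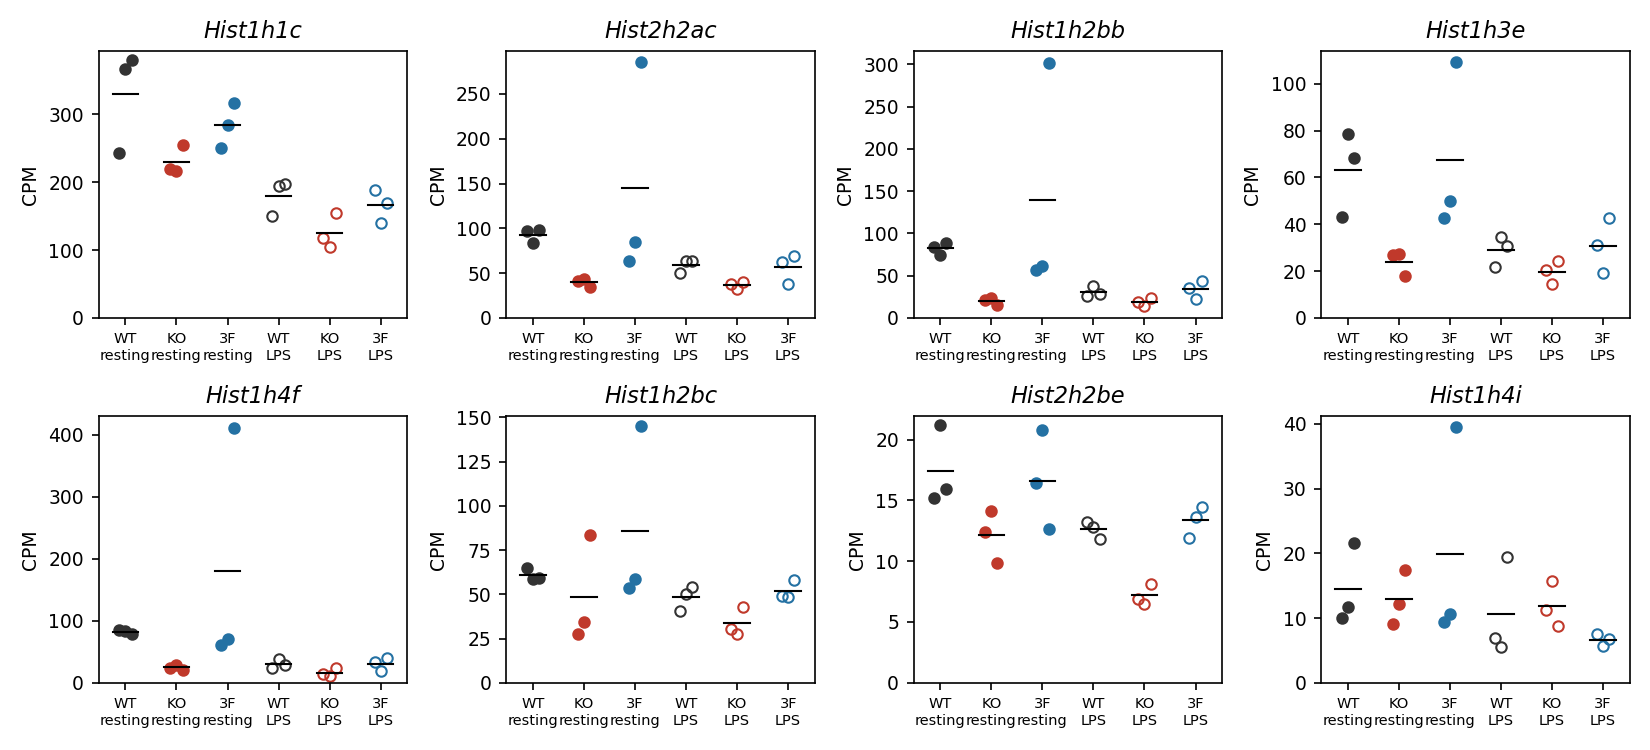
Level in TMM-scaled CPM (vertical axis) of 8 members in each library of the 6 groups, filled for resting and open for LPS, with a line at the mean of the 3 libraries. Hist1h4f in resting 3F replicate 3 is at 411 CPM, and Hist2h2be is lowest in KO given LPS, at 6.52 to 8.13 CPM.

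Members were also split by features that did not choose them, with no test of the split. In the LPS response of WT, 30 of 43 tested members with exons of up to 1000 bases and 6 of 14 longer ones were lower, with medians of -1.40 and -0.90. By cluster, 35 of 47 on chromosome 13 and 1 of 8 on chromosome 3 were lower, with medians of -1.42 and -0.68. Of all tested genes, 12.3% were lower, near the 12.5% on chromosome 3. Hist2h2aa1, Hist2h3b and Hist2h3c1 on chromosome 3 have 0% unique 50-base stretches. Cluster was not separated from sequence sharing or level. Of members with under 50% of their 50-base stretches unique, 20 of 30 were lower, and of the others 16 of 27. In KO against WT at rest, 28 of 43 short and 4 of 14 long members were lower, as were 31 of 47 on chromosome 13 and 1 of 8 on chromosome 3. The share of all tested genes was 4.27%.

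Many genes of DNA replication and proliferation were also lower after LPS and in KO against WT, though not always where histone genes were called. The part of the share of dividing cells was not tested. The S-phase and proliferation list of 20 genes had 14, 12 and 13 lower in the LPS responses of WT, KO and 3F (12.3%, 12.6% and 14% of all tested genes). It had 10 and 11 lower in KO against WT at rest and under LPS (4.27% and 2.9% of all), and 0 higher in these comparisons. In KO against WT under LPS the histone members had 3 of 57 lower, with medians of -0.86 for the list and -0.68 for the members. In the interaction of KO against WT with LPS, the medians were -0.03 for the list and 0.68 for the histone members, with 0 called in either. None of the 20 differed between 3F and WT in either state. Its summed level was 2020 ± 175 CPM (SD, n = 3) in resting WT, 1080 ± 69 in resting KO and 1843 ± 244 in resting 3F, where replicate 3, at 2115 CPM, was within the range of resting WT. Mki67, a proliferation marker, fell after LPS in WT (-1.04 ± 0.32, adjusted p = 0.0243) and was lower in resting KO than in resting WT (-1.42 ± 0.33, adjusted p = 0.0127). Pcna, the DNA polymerase clamp, passed in the 3F LPS response (-0.56 ± 0.19, adjusted p = 0.0317) and not in WT (-0.15 ± 0.19, adjusted p = 0.599). Without resting 3F replicate 3 the Pcna value was -0.53 ± 0.20 and did not pass (adjusted p = 0.0575).

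Genes that make, process and load histone mRNA and protein were called in both directions. Of 18 genes of histone mRNA transcription, processing and decay, 3 were lower (16.7%) and 2 higher (11.1%) in the WT LPS response. Of all tested genes, 12.3% were lower and 16.3% higher. In KO against WT at rest 1 was lower and 1 higher (5.56% each), against 4.27% and 5.12% of all tested genes. The shares in these 2 comparisons were near those of all genes. In the KO LPS response 4 were lower (22.2%) and 1 higher (5.56%), against 12.6% and 14.3% of all tested genes. In the 3F LPS response 5 were lower (27.8%) and 3 higher (16.7%), against 14% and 17.2%. In KO against 3F at rest 2 were lower and 2 higher (11.1% each), against 6.1% and 6.79%. Slbp had 44.5, 36.1 and 30.4 CPM in resting WT and 31.6, 33.4 and 34.0 in resting KO, and did not pass (-0.17 ± 0.14, adjusted p = 0.535), but fell in the 3F LPS response by 0.44 ± 0.14 (adjusted p = 0.0292), a call lost without resting 3F replicate 3 (-0.32 ± 0.13, adjusted p = 0.0704). Npat, which activates histone transcription, passed in no comparison, with -0.26 ± 0.20 in WT (adjusted p = 0.351). Cdk2, the S-phase kinase that acts on Npat, fell after LPS in WT (-0.56 ± 0.12, adjusted p = 0.00314), KO (-0.61 ± 0.13, adjusted p = 0.00175) and 3F (-0.53 ± 0.13, adjusted p = 0.00459). Of 12 histone chaperones and assembly factors, 5 were lower in each LPS response and 4 in KO against WT at rest. Of all tested genes, 12.3%, 12.6% and 14% were lower in the LPS responses of WT, KO and 3F, and 4.27% in KO against WT at rest. Higher were 1, 2 and 0 of the 12 in the LPS responses of WT, KO and 3F, and 0 in KO against WT at rest. For all tested genes these shares were 16.3%, 14.3%, 17.2% and 5.12%. Nasp, a chaperone of H3 and H4 and of H1, fell by 0.45 ± 0.15 in the WT LPS response (adjusted p = 0.0314).

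Genes of the replication-independent histone list were also called in both directions after LPS, and their timing in the cell cycle was not tested. Of 10 in the table, 3 were lower and 2 higher after LPS in WT, against 12.3% and 16.3% of all tested genes. In KO against WT at rest 2 were lower and 0 higher, against 4.27% and 5.12% of all tested genes. H3f3b, which encodes the replacement histone H3.3, rose after LPS in WT by 0.69 ± 0.21 (adjusted p = 0.0218) and in KO by 0.62 ± 0.21 (adjusted p = 0.0386). H2afx, which encodes the H2A form marked at DNA breaks, was lower after LPS in WT (-1.10 ± 0.39, adjusted p = 0.0422) and in resting KO against WT (-1.80 ± 0.40, adjusted p = 0.0103). H2afz, which encodes H2A.Z, did not pass in KO against WT at rest (-0.75 ± 0.27, adjusted p = 0.0921) but did in KO against 3F at rest (-0.95 ± 0.27, adjusted p = 0.0318), and was at 423 CPM in resting 3F replicate 3 against 158 and 166 CPM in its partners. Without that library the H2afz value for KO against 3F was -0.33 ± 0.13 and did not pass (adjusted p = 0.148). H1f0, the linker histone of non-dividing cells, had 67.7, 59.0 and 154 CPM in resting KO and passed in no LPS response.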

How the data were processed

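Per the labels and the study's methods, reads were trimmed with cutadapt 1.8.3, ribosomal reads were removed, the rest aligned to mm10 with HISAT2 2.1.0 and counted on the sense strand with featureCounts 1.5.3, keeping reads of high mapping quality, with GENCODE M15 protein-coding genes. The deposited values are raw counts per gene for 18 libraries, and the authors applied no normalization to them. Read count totals limit precision, most in resting 3F replicate 3.

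Counts were analysed in R 4.3.3 with edgeR 4.0.16: genes were kept by filterByExpr over 6 groups (11357 of 21734), scaled by TMM, and tested by glmQLFTest in one fit of all 18 libraries, two-sided, with Benjamini-Hochberg adjustment over all tested genes. CPM is the count scaled to a TMM-adjusted library of 1e+06. SE is the log2 fold change divided by the square root of F. Alternatives were another normalization, no low-count filter, other tools, 2-group fits, a replicate block and leaving out libraries, and used DESeq2 1.42.0 and limma 3.58.1. The fit was tested on simulated data of 11357 genes for the WT LPS response: 74 of 100 genes changed by 1 and 92 of 100 changed by 2 on the log2 scale were called, with 6 false calls. Bone marrow came from 3 mice of each genotype, but the labels do not tie a library to a mouse, so p-values measure the spread between these libraries, which may be technical in part.

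The members and gene lists were chosen with earlier results of these data known. Named members were, in each class, the 4 with the highest mean CPM and, in each comparison, up to 3 called members with the largest fold change in each direction, and Slbp, Npat, Nasp, Cdk2, H2afz, H2afx, H3f3b, H1f0, Mki67 and Pcna. Members called in no comparison were named after their values were seen. Transcripts of GENCODE M21 were used for sequence, since no genome was used here.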

Additional observations from a re-analysis of the deposited data

How the results depend on the processing

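Of 147 counts of called members recomputed under another setting, 116 stayed within 1.5 times the reported count and 31 did not. A reported count of 0 that stayed at 0 is among the 116, as for 3F against WT and the interactions. The share that stayed is therefore not a measure for the comparisons with called members. Of 95 summed ratios 85 moved by less than the spread between libraries. Of 239 values of the called members with the largest fold changes in each comparison, none changed direction and 35 no longer passed. These members were picked for large falls, so a change of direction was unlikely. The other named genes were not part of this count. With DESeq2 size factors in the same edgeR fit, every count stayed within that range. With no filter on low counts, KO against WT under LPS gave 7 and KO against 3F under LPS gave 6. The DESeq2 Wald test gave 9 for both. limma-voom with library quality weights gave 13 and 14 for these, 25 for the KO LPS response and 49 for KO against WT at rest. Fitting only the 2 groups gave 11 and 19 (18 lower and 1 higher), and 0 for KO against 3F at rest. Leaving out both libraries that stand apart, a choice made after seeing the data, gave 24 for the KO LPS response and 20 for KO against 3F at rest, and summed log2 ratios of -0.85 for the 3F LPS response, -0.38 for 3F against WT at rest and -0.76 for KO against 3F at rest. Plain total counts gave -1.45 in WT and -0.87 in KO for the LPS response. For KO against WT at rest, short members alone gave -1.53, and all members except Hist1h1c gave -1.31. The cause of these shifts was not tested.

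With one library left out at a time, counts ranged from 19 to 34 (WT LPS response), 4 to 15 (KO), 34 to 47 (3F), 13 to 26 (KO against WT, resting), 0 to 3 (KO against WT, LPS), 27 to 44 (KO against 3F, resting) and 0 to 3 (KO against 3F, LPS), and were 0 for 3F against WT and the interactions. Summed log2 ratios ranged from -1.92 to -0.85 (3F LPS response), -0.38 to 0.70 (3F against WT, resting) and -1.87 to -0.80 (KO against 3F, resting).

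With a replicate block, in which libraries of one genotype and number were paired, the WT, KO and 3F LPS responses gave 40, 14 and 44 lower members. With the number as a block across genotypes, KO against WT gave 35 at rest and 4 under LPS, and KO against 3F gave 42 and 1. The interactions and 3F against WT stayed at 0. Deviations of same-numbered libraries of one genotype correlated between 0.03 and 0.32, and across genotypes between -0.29 and 0.21, so the numbers were not taken as pairs. Depth limits the members with the fewest counts.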
